A study of Homo sapiens with 2 samples.

Results

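Oligosaccharyltransferase is the enzyme of the endoplasmic reticulum that starts N-glycosylation, by moving a preassembled sugar chain from the lipid carrier dolichol to asparagines of proteins as they enter the lumen. It exists as separate assemblies built on the catalytic subunit STT3A or STT3B. The STT3A assembly sits at the protein-conducting channel and acts on chains still being translated, while the STT3B assembly also reaches sites that were skipped and carries an oxidoreductase, TUSC3 or MAGT1. A set of small and large subunits is common to both. In cancer cells this step precedes all later trimming and branching of N-glycans, including those on the immune checkpoint ligand PD-L1, encoded by CD274.

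The 10 subunit genes described here, STT3A, STT3B, RPN1, RPN2, DDOST, DAD1, OSTC, OST4, TUSC3 and MAGT1, were chosen by gene symbol out of 49609 genes listed in the files. RNA-seq had been carried out on MDA-MB-231 cells, a human triple-negative breast cancer line, with 1 library from RBMS1 knockdown cells and 1 from control cells. According to the study's methods, knockdown was stable, through an shRNA delivered by lentivirus in the pLKO.1 plasmid, control cells carried the same plasmid without an shRNA insert, and infected cells were selected with puromycin. RBMS1 is an RNA-binding protein, and the comparison asks how the transcriptome of these cells differs when it is depleted. There were no replicates, so every difference below is a description of 2 libraries, and an effect of RBMS1 cannot be told apart from a difference between cultures. In bulk RNA, fewer cells expressing a gene and less RNA per cell also cannot be told apart.

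Levels are given as FPKM, which counts fragments for each kilobase of a transcript's length and adjusts for the size of the library, as estimated by Cufflinks and summed over the transcripts of a gene. The range in parentheses after a value is the interval Cufflinks gives within a library, also summed over transcripts. It covers counting and the division of reads among transcripts, not differences between cultures. The files hold no read counts, so the depth is unknown, and a value of exactly 0 can be a failed estimate. Coverage per FPKM had a median of 12.3 in RBMS1-depleted cells, against 11.3 in control cells, so the former were read 1.09 times as deeply and precision was similar. Reference transcripts of the subunits that were above 0 had a coverage between 28.2 and 1432.

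RBMS1 was at 3.76 FPKM (3.12 to 5.39) in RBMS1-depleted cells, against 24.1 FPKM (21.7 to 27.7) in control cells, or 15.6% of control, so the library labelled as the knockdown had the lower level. B4GALT1, a galactosyltransferase of the Golgi that acts on N-glycans long after oligosaccharyltransferase, was at 9.70 FPKM in RBMS1-depleted cells, against 21.4 FPKM in control cells. Its log2 ratio of -1.07 was -1.89 over reference transcripts alone and -0.85, short of 2-fold, with 5 FPKM added before the log2. CD274 was at 6.18 FPKM and 7.32 FPKM, with overlapping intervals and a log2 ratio of -0.21, which was -0.44 over reference transcripts alone and -0.68 in the table of the whole series. All 7 markers fixed for MDA-MB-231 cells were expressed, with a summed level of 1298 FPKM in RBMS1-depleted cells, against 1391 FPKM in control cells. Among them CD44 differed most downward, at 154 FPKM against 204 FPKM in control cells (log2 ratio -0.41, and -0.66 in the table of the whole series), and CAV1 most upward, at 168 FPKM against 112 FPKM. Intervals were apart for all 7 markers, 5 lower and 2 higher in the knockdown library, beside 31.8% of all genes averaging 10 FPKM or more. The receptors that define the triple-negative state were low, ESR1 at 0.0996 FPKM and 0.0286 FPKM and PGR at 0.00168 FPKM and 0.00367 FPKM, while ERBB2 was at 7.50 FPKM and 7.0 FPKM, a log2 ratio of 0.09 that turned to -1.64, past 2-fold, over the 2 transcripts listed in the table of the whole series. The 8 markers of other cell types summed to 2.72 FPKM in RBMS1-depleted cells, against 4.64 FPKM in control cells, and EPCAM was their most abundant gene, at 1.93 FPKM and 3.66 FPKM. CD3E and CD68 were listed at 0 in both libraries. Whether this difference in marker genes has a part in the values of the subunits was not tested.

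None of the 10 subunits differed by 2-fold between RBMS1 knockdown and control cells. The share was 3.63% among genes averaging 10 FPKM or more, as all 10 subunits did, and 5.73% among all genes, either of which is less than 1 in 10 genes. Over reference transcripts alone, 1060 of 10407 genes were past 2-fold, slightly more than 1 in 10, and with the dominant transcript 977 of 10065. The 5.73% is over the 11179 genes whose FPKM averaged 1 or more across both libraries, called expressed genes below. The threshold is a log2 ratio of 1 or more, or of -1 or less, where the log2 ratio compares FPKM + 1 in the knockdown library with FPKM + 1 in the control library and so understates differences of low genes. All 10 subunits passed this filter. Of them, 5 were lower and 5 higher in the knockdown library, close to the 47.2% of all genes that were lower. Their median log2 ratio was 0.02, the same to this precision as the median of all genes, 0.02. The lowest log2 ratio was -0.12, of MAGT1, and the highest 0.32, of OSTC. Computed from the ends of the within-library intervals, the log2 ratios of the 10 subunits ran from -0.33 to 0.53, short of 2-fold on either side. TUSC3 left this range over reference transcripts alone, at -0.60, and with its dominant transcript, at -0.75. Within the range, DAD1 and OSTC were higher in the knockdown library with intervals that did not overlap those of the control library. That is 2 of 10 subunits, both upward, against 24.7% of all genes with intervals apart in either direction and 13.3% with intervals apart upward. Among genes averaging 10 FPKM or more, the share with intervals apart was 31.8% in either direction and 17.8% upward. Over reference transcripts alone, and with dominant transcripts, TUSC3 also had intervals apart, downward, so 3 subunits did, beside 33.5% and 49.5% of all genes under these settings, shares added after the values had been seen.

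The catalytic subunits differed little between the libraries. STT3A, which lies at chr11:125591712-125625215 on the plus strand of GRCh38, was at 73.9 FPKM (69.4 to 80.6) in RBMS1-depleted cells, against 72.0 FPKM (67.4 to 78.8) in control cells. STT3B, at chr3:31532638-31637622 on the plus strand, was at 43.9 FPKM (41.9 to 46.5) and 46.2 FPKM (44.0 to 49.0). The intervals overlapped for both genes, with log2 ratios of 0.04 for STT3A and -0.07 for STT3B. Per length, STT3A mRNA summed over its 3 transcripts was thus the more abundant catalytic mRNA in both libraries. It was 1.68 times STT3B in the knockdown library (1.49 to 1.92) and 1.56 times in the control library (1.38 to 1.79). The largest STT3A transcript alone, at 35.1 FPKM in both libraries, was below STT3B. STT3A made up 62.7% of the summed catalytic FPKM in knockdown cells and 60.9% in control cells.

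STT3B had 1 transcript above 0 in each library, whereas STT3A was divided among 3 reference transcripts that share their first splice donor. They are told apart by the exon that follows, shown here as the last 14 bases of exon 1 in lower case and the first 14 bases of the next exon in capitals, from GENCODE release 29. Exon 1 ends at position 125592918 of chromosome 11, and the next exon starts at 125595881 in STT3A-201, at 125593638 in STT3A-211 and at 125597059 in STT3A-214.
STT3A-201: ggaaagccggccagCTGATCGTCGTGTG
STT3A-211: ggaaagccggccagGCATTCCAGAAAAC
STT3A-214: ggaaagccggccagCCTTCTCCACTCGT
STT3A-201 and STT3A-211 have an annotated coding sequence of 705 codons starting at 125595916. STT3A-214 skips the exon with that start codon, and its annotated coding sequence starts at 125602808 and has 613 codons. STT3A-214 was the largest of the 3 in FPKM, at 35.1 FPKM in RBMS1-depleted cells, against 35.1 FPKM in control cells, 47.4% and 48.7% of the gene. STT3A-211 held 29.2% and 27.4%. STT3A-201, whose last exon has 2320 bases and carries a long 3′ untranslated region (UTR), against last exons of 117 bases in the others, held 23.3% and 23.9%. The division of STT3A among its transcripts was therefore nearly the same in both libraries, and the intervals overlapped for all 3. STT3A overlaps CHEK1 on the same strand, which was at 12.9 FPKM and 14.3 FPKM, and reads from their common stretch can be divided between the genes.

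RPN1 and RPN2, the large ribophorin subunits found in both assemblies, were slightly lower in the knockdown library, within their intervals. RPN1 (chr3:128619970-128681075, minus strand) was at 49.5 FPKM (46.9 to 52.9) in knockdown cells and at 51.3 FPKM (48.6 to 54.8) in control cells, a log2 ratio of -0.05. RPN2 (chr20:37178410-37241623, plus strand) was at 83.1 FPKM (79.2 to 87.8) and 89.5 FPKM (85.3 to 94.6), a log2 ratio of -0.11. RPN2 mRNA exceeded RPN1 mRNA 1.68 times in RBMS1-depleted cells, against 1.75 times in control cells. Each had 1 reference transcript above 0.

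DDOST, which holds the catalytic subunits in the assembled enzyme, had the same level in both libraries but was not composed of transcripts in the same way. The gene (chr1:20651767-20661544, minus strand) was at 59.8 FPKM (55.7 to 64.9) in RBMS1-depleted cells, against 59.8 FPKM (55.7 to 64.9) in control cells, a log2 ratio of -0.00. DDOST-206, of 1963 bases and 439 codons, was at 36.4 FPKM (34.1 to 38.7) and 33.4 FPKM (31.2 to 35.5), which is 60.8% and 55.8% of the gene. DDOST-201 starts further upstream, with 2079 bases and 456 codons, and was at 15.5 FPKM (14.1 to 16.8) in knockdown cells against 19.7 FPKM (18.1 to 21.2) in control cells. The intervals of DDOST-201 do not overlap, as for 51.9% of all reference transcripts averaging 1 FPKM or more. Its share of the gene was 25.9% in RBMS1-depleted cells, against 32.9% in control cells. The remainder was an assembled transcript of 13 exons in each library, at 7.98 FPKM and 6.78 FPKM. It shares 10 introns with DDOST and runs past the annotated end of the gene by 6223 bases in the knockdown library and by 9110 bases in the control library. There it shares introns with the antisense gene PINK1-AS, 1 in knockdown cells and 2 in control cells. Cufflinks marked it in neither library as supported by reads over its whole length. With DDOST-206 alone as the value of the gene, the log2 ratio was 0.12.

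DAD1, a small membrane subunit first known as a defender against cell death, was at 63.4 FPKM (59.0 to 68.8) in RBMS1-depleted cells, against 51.2 FPKM (47.3 to 56.2) in control cells. That is 124% of control, with a log2 ratio of 0.30, higher than that of 82.7% of all genes. The gene lies at chr14:22564905-22589269 on the minus strand and has 5 reference transcripts, of which only DAD1-201, of 731 bases, was above 0 in either library. The others enter the upper end of its interval. In control cells DAD1 and RPN1 were at nearly the same level, with a ratio of 0.998 (0.863 to 1.16), and in knockdown cells the ratio was 1.28 (1.12 to 1.47). OST4, the smallest subunit with 37 codons, which helps hold STT3 in the complex, was the most abundant subunit mRNA per length. It was at 114 FPKM (107 to 122) in RBMS1-depleted cells, against 104 FPKM (96.9 to 112) in control cells, with overlapping intervals and a log2 ratio of 0.13. OST4 (chr2:27070472-27071773, minus strand) overlaps AGBL5 on the opposite strand, which was at 4.13 FPKM and 4.07 FPKM. TMEM258, the remaining common subunit, was listed at 0 in both libraries over 8 reference transcripts, so no ratio is given. Most cells express it, so this 0 may be a failed estimate and is not read as absence. It overlaps FEN1 on the opposite strand, at 38.8 FPKM and 46.1 FPKM.

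OSTC links the STT3A assembly to the protein-conducting channel. It had the highest log2 ratio of the 10, 0.32, at 61.5 FPKM (57.9 to 66.0) in RBMS1-depleted cells, against 49.1 FPKM (45.9 to 52.7) in control cells, or 125% of the control level. The gene (chr4:108650584-108667820, plus strand) had 1 transcript above 0 in both libraries, of 1077 bases. The 6 pseudogenes named after OSTC summed to 1.38 FPKM and 1.35 FPKM, and reads can be divided between them and the gene. KRTCAP2, the other subunit particular to the STT3A assembly, was at 66.2 FPKM (60.9 to 74.2) and 62.7 FPKM (57.5 to 70.8), with overlapping intervals. STT3A mRNA exceeded OSTC mRNA 1.47 times in control cells (1.28 to 1.72) and 1.2 times in knockdown cells (1.05 to 1.39), ranges that overlap. DAD1, OSTC and OST4 have the shortest main transcripts of the 10. Among genes averaging 10 FPKM or more, the middle 50% of the log2 ratios ran from -0.14 to 0.23 for the 985 genes with a main transcript of up to 1200 bases, from -0.12 to 0.18 for the 1565 genes from there to 2500 bases and from -0.15 to 0.19 for the 2302 longer ones, with a median of 0.03 in each. Whether length has a part in the values of these subunits was not tested.

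The oxidoreductases of the STT3B assembly were the least abundant subunits. MAGT1 (chrX:77826364-77895593, minus strand) was at 16.6 FPKM (15.7 to 17.7) in RBMS1-depleted cells, against 18.2 FPKM (17.2 to 19.4) in control cells, with a log2 ratio of -0.12. TUSC3, which takes the same place in the assembly as MAGT1 and lies on the plus strand of chromosome 8, was at 27.0 FPKM (23.6 to 31.5) and 25.3 FPKM (21.8 to 30.0), with a log2 ratio of 0.09. The intervals overlap for both. TUSC3 mRNA was above MAGT1 mRNA in both libraries, 1.63 times in knockdown cells (1.34 to 2.01) and 1.39 times in control cells (1.12 to 1.75). Over reference transcripts alone, a comparison chosen after the values had been seen, it was 0.878 times MAGT1 in knockdown cells (0.708 to 1.13) and 1.24 times in control cells (1.004 to 1.56), so in the knockdown library the order turned without the assembled transcript. The small difference in TUSC3 rests on assembled transcripts, because the log2 ratio was -0.60 over reference transcripts alone and -0.75 over the reference transcript with the highest level.

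TUSC3 was the subunit with the most complex set of transcripts, and the transcripts that Cufflinks listed differed between the libraries. In the knockdown library the largest part, 12.5 FPKM (11.1 to 13.8) or 46.1% of the gene, was an assembled transcript of 11 exons and 1325 bases. In the control library the largest part was the reference transcript TUSC3-203, also of 11 exons, at 11.6 FPKM (10.3 to 12.9) or 45.8%, and TUSC3-203 was at 6.48 FPKM (5.55 to 7.41) in the knockdown library. The assembled transcript runs from 15540223 to 15764226, and TUSC3-203, of 1498 bases, from 15540283 to 15764459. The assembled transcript holds exons 7, 9 and 10 of TUSC3-203, and the shifted ends account for the whole difference in length. These features match TUSC3-203 with other ends, so a change of main transcript cannot be read from the names. Together these 2 transcripts held 19.0 FPKM (16.7 to 21.2) in the knockdown library. The control library had an assembled transcript of its own at 2.79 FPKM. TUSC3-204 was at 3.80 FPKM in the control library and listed at 0 in the knockdown library. TUSC3-201 was at 3.05 FPKM and 2.73 FPKM, and TUSC3-213, annotated as a target of nonsense-mediated decay, was at 5.04 FPKM and 4.41 FPKM, or 18.6% and 17.4% of the gene.

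The transcripts were also summed by exon. Exon 7 of TUSC3-203, of 64 bases, was included in 81.4% of TUSC3 FPKM in knockdown cells and 82.6% in control cells. Exon 10, of 65 bases, whose use sets the end of the coding sequence, was included in 19.0 FPKM (16.7 to 21.2) of 2 transcripts in the knockdown library and in 14.4 FPKM (12.7 to 16.1) of 2 transcripts in the control library. These intervals do not overlap, but they were summed only over transcripts above 0 and so are narrower than those of the genes. No share over all genes was computed for such sums. As a share of the gene, exon 10 was included in 70.1% in knockdown cells and 56.8% in control cells. The direction turned when assembled transcripts were left out, with 44.5% in knockdown cells and 51.5% in control cells, a comparison chosen after the values had been seen. Left out are then assembled transcripts that hold exon 10, at 12.5 FPKM in the knockdown library and 2.79 FPKM in the control library. The former matches TUSC3-203 but for its ends, so the turned direction follows from which transcripts are counted. Exon 9, of 91 bases, was skipped only by TUSC3-204 and so included in 100% and 85.0%. Over the 16 reference transcripts of the 10 subunits averaging 1 FPKM or more, the intervals were apart for 5 (DAD1-201 and OSTC-201 upward, DDOST-201, TUSC3-203 and TUSC3-204 downward), against 51.9% of all reference transcripts at that level.

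The order of the subunits by FPKM ran, in control cells, from OST4 over RPN2, STT3A, DDOST, RPN1, DAD1, OSTC, STT3B and TUSC3 to MAGT1. Intervals of neighbours overlapped for RPN1 and DAD1, for DAD1 and OSTC and for OSTC and STT3B. In knockdown cells DAD1 and OSTC stood in the fourth and the fifth place, above DDOST and RPN1, and the intervals overlapped for RPN2 and STT3A, for DAD1 and OSTC and for OSTC and DDOST. The level of OST4 was 5.73 times that of MAGT1 in control cells and 6.87 times in knockdown cells. Among expressed genes, OST4 stood at percentile 96.2 of the levels in the control library, STT3B at 90.9, TUSC3 at 81.7 and MAGT1 at 74.3. Summed, the 10 subunits were at 593 FPKM in RBMS1-depleted cells, against 567 FPKM in control cells.

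RBMS proteins are known to bind A and U rich RNA with the core AUAUA, so the 3′ UTR of the main protein-coding transcript of each subunit was searched for ATATA on the coding strand. At least 1 match was present in 5 of the 10, STT3B, DDOST, OSTC, OST4 and MAGT1, and in 56.9% of the 9644 expressed genes with a 3′ UTR. The first match of each is shown with ATATA in capitals, from GENCODE release 29 on GRCh38, because these are the letters a search for RBMS1 binding would start from.
STT3B, chr3:31637250-31637274, plus strand: ctgccacaggATATAactttttttt
DDOST, chr1:20652198-20652222, minus strand: gataatttttATATAaaagaagttt
OSTC, chr4:108667528-108667552, plus strand: tttcattaaaATATAttccatatct
OST4, chr2:27070493-27070517, minus strand: cctccccccaATATAaaaatataga
MAGT1, chrX:77829192-77829216, minus strand: ggtcccagagATATAtagacactgg
MAGT1 had 6 matches in 2853 bases, and 88.9% of genes with a 3′ UTR within 20% of that length had at least 1. STT3B had 2 matches in 1558 bases, where 73.4% of such genes had a match. DDOST had 2 in 602 bases and OSTC 1 in 555 bases, beside 41.6% and 40.0% of genes of similar length. OST4 had 2 in 273 bases, beside 26.4%. DAD1, with 277 bases, had no match, and neither did RPN1, RPN2 and TUSC3. The main transcript of STT3A, STT3A-214, has a 3′ UTR of only 78 bases, without a match. The longer 3′ UTR of STT3A-201 was not searched. Subunits with a match were found on both sides, OSTC and OST4 among the higher and MAGT1 and STT3B among the lower ones, and DAD1 and OSTC, whose intervals were apart, differed in this feature. A match is only a description of the letters, and binding was not measured.

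The genes that act before and after oligosaccharyltransferase were taken from 5 lists with 57 genes, of which 55 were expressed by the same filter. Of these 22 were lower and 33 higher in the knockdown library, with a median log2 ratio of 0.04, and 2 differed by 2-fold, both upward, which is 3.6% of them beside 5.73% of all genes. These 2, ALG14 and ALG12, passed the filter only through their level in the knockdown library. Intervals were apart for 4 downward and 5 upward, together 16.4% beside 24.7% of all genes. ALG12 and ALG10, which passed in the same way, are among the upward ones. With 0.1 FPKM added before the log2, 3 genes were past 2-fold upward and 1 downward, beside 876 of all 11179 genes. With 5 FPKM none was, beside 256 of all 11179 genes. Over reference transcripts alone, 3 of the 51 genes left were past 2-fold downward (NUS1, ALG6 and SEL1L) and 1 upward (SPCS2). Past 2-fold in either direction were 1060 of all 10407 genes under this setting. ALG14 and ALG12 were not among the list genes past 2-fold, a count added after the values had been seen. That can mean a ratio short of 2-fold or a level below the filter, which were not told apart here. The lists thus held values on both sides of 0, as the subunits did.

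Dolichol and its phosphate carry the sugar chain. In this list 2 of 9 genes were lower and 7 higher, none by 2-fold, with a median log2 ratio of 0.05, and under other scalings of the libraries 3 or 4 of 9 were lower. Over reference transcripts alone, and with the dominant transcript, NUS1 was past 2-fold, at -2.23, and is named because of this value. SRD5A3, which reduces polyprenol to dolichol, was at 4.29 FPKM (3.28 to 5.39) in RBMS1-depleted cells, against 2.46 FPKM (1.68 to 3.35) in control cells, the highest log2 ratio of the list at 0.61. DPM2, a subunit of dolichol phosphate mannose synthase, had the lowest at -0.28, with 20.6 FPKM and 25.2 FPKM, and a log2 ratio of 0.70 over reference transcripts alone. MPDU1 was listed at 0 in both libraries, which may likewise be a failed estimate, as most cells express it.

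The ALG enzymes build the chain on dolichol. Here 4 of 13 genes were lower and 9 higher, with a median log2 ratio of 0.17, and 5 of 13 were lower under each of the other scalings. Over reference transcripts alone the median was -0.03, with 9 genes left. ALG14 and ALG12 were the 2 genes past 2-fold, and none was when 5 FPKM was added before the log2, while ALG10 also was, at 1.16, when 0.1 FPKM was added. These genes were below 1 FPKM in the control library (ALG10 at 0.701 FPKM), so they passed the filter only through the knockdown library. ALG14, which anchors the transferase for the second sugar, was at 5.06 FPKM (3.63 to 7.0) in knockdown cells and at 0.568 FPKM in control cells, but the control interval reached from 0.485 to 722 FPKM, which takes in the knockdown interval, so the log2 ratio of 1.95 is poorly fixed. ALG12, a mannosyltransferase of the lumen, was at 3.22 FPKM (2.74 to 3.90) and 0.907 FPKM (0.768 to 1.26), a log2 ratio of 1.15 with intervals apart. ALG1 and ALG10 also had intervals apart, with log2 ratios of 0.50 and 0.66, and these 2 genes and ALG12 are named because of their values. ALG3 had the lowest log2 ratio, -0.19, at 13.5 FPKM and 15.6 FPKM, and -0.64 over reference transcripts alone.

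After transfer, glucosidases and the lectin chaperones calnexin and calreticulin bind the new glycoprotein. In this list 7 of 9 genes were lower and 2 higher, with a median log2 ratio of -0.10 and none at 2-fold, and 8 of 9 were lower under each of the other scalings. MLEC, which encodes the lectin malectin that associates with RPN1, was lowest, at 20.4 FPKM (19.4 to 21.95) in knockdown cells and at 29.5 FPKM (28.1 to 31.5) in control cells, a log2 ratio of -0.51. PDIA3, the disulfide isomerase that works with calnexin and calreticulin, was at 135 FPKM (128 to 143) and 173 FPKM (164 to 182), a log2 ratio of -0.35, and is named because it was the other gene of the list with intervals apart. The chaperones themselves were level, CALR at 410 FPKM and 411 FPKM and CANX at 287 FPKM and 286 FPKM, also named after their values were seen. UGGT2, a folding sensor that adds glucose back, had the highest log2 ratio, 0.06, which was -0.13 over reference transcripts alone.

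Mannose trimming sends misfolded glycoproteins to degradation, and 3 of 9 genes of this list were lower and 6 higher, with a median log2 ratio of 0.07 and 4 of 9 lower under each of the other scalings. SEL1L, the adaptor of the ubiquitin ligase of this pathway, was at 21.2 FPKM (19.2 to 23.6) in RBMS1-depleted cells, against 14.3 FPKM (13.3 to 15.8) in control cells, a log2 ratio of 0.54. Over reference transcripts alone the log2 ratio of SEL1L was -1.82, from 2.54 FPKM in control cells and 0 in knockdown cells. That 0 can be a failed estimate. ERLEC1, a lectin of the same pathway, was lowest with -0.32, at 15.4 FPKM (13.9 to 17.1) and 19.4 FPKM (17.2 to 21.9), with intervals apart, and the log2 ratio was -0.03 over reference transcripts alone.

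The translocon and its partners surround the STT3A assembly at the membrane. Of 15 genes 6 were lower and 9 higher, with a median log2 ratio of 0.07. SEC62, a channel partner for proteins imported after translation, was at 44.6 FPKM (39.5 to 51.1) in knockdown cells and at 23.2 FPKM (20.4 to 27.6) in control cells, a log2 ratio of 0.91 that was -0.41 over reference transcripts alone. SEC11C, a catalytic subunit of signal peptidase, was at 8.34 FPKM (6.63 to 10.6) and 17.3 FPKM (13.0 to 22.01), a log2 ratio of -0.97 that was 0.11 for its dominant transcript and -1.04, past 2-fold, with 0.1 FPKM added. The channel subunits SEC61A1 at 48.4 FPKM and 47.0 FPKM, SEC61B at 134 FPKM and 128 FPKM and SEC61G at 185 FPKM and 175 FPKM had overlapping intervals and were named after their values were seen.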

How the data were processed

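Total RNA of 2 libraries was sequenced. The authors deposited, for each library, transcripts with FPKM, intervals and coverage from Cufflinks. The submitters' processing notes name Bowtie2 2.0.6, TopHat2 2.0.9, Cufflinks 2.1.1 and Cuffdiff 2.1.1. The genome build is not given in the sources used here, but 97.3% of the reference transcripts matched to GENCODE release 29 had the start and end annotated there on GRCh38. A further deposited table holds FPKM per transcript beside the authors' fold changes and p-values, and only its FPKM columns entered, as an alternative.

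Gene levels summed the FPKM of reference transcripts and of assembled transcripts sharing at least 1 intron on the same strand. Whether the libraries were stranded is not given in the sources used here. Counts and ranks took genes averaging 1 FPKM or more, and 1 FPKM was added before log2. No test was possible. The ratio functions were tested on simulated data. Protein sequences were not used here.

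Genes named by rule were the subunits, TMEM258, KRTCAP2, RBMS1, B4GALT1, CD274 and the lowest and highest gene of each list. Other genes were named outside this rule, among them NUS1, ALG6 and SPCS2 for their values and CHEK1, AGBL5 and FEN1 as overlapping genes. The members and lists were chosen with earlier results of these data known. The alternatives added 0.1 or 5 FPKM, or used other filters, 3 other scalings and other rules for summing transcripts. Python 3.11.15 with pandas 2.3.3 and numpy 2.4.6 was used.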

Additional observations from a re-analysis of the deposited data

Results flagged for a closer look

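In the table of the whole series, whose values are on a scale of their own, 3 minor transcripts of the subunits were above 0 in the knockdown library and listed at 0 in the control library. They are transcripts of DAD1 at 0.985 FPKM, of DDOST at 0.815 FPKM and of RPN1 at 0.182 FPKM, and no other transcript of the 10 subunits is listed there. In the transcript files of the single libraries the same 3 transcripts are listed at 0 in both, so they add nothing to the gene levels given above.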

How the results depend on the processing

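No paired analysis was possible because each group has 1 library. Under 12 alternatives the count of subunits past 2-fold was 0 each time, 5 or 6 of the 10 were lower in the knockdown library, 2 or 3 had intervals apart, and their median log2 ratio lay between -0.04 and 0.02. It was below 0 under each of the other scalings, with assembled transcripts left out and with the dominant transcript alone. The scalings move all genes alike, and the median of all genes was then also below 0, between -0.008 and -0.002. For 8 subunits the sign of the log2 ratio held under all 12. DDOST turned to 0.12 with the dominant transcript, and TUSC3 to -0.60 over reference transcripts and -0.75 for the dominant one, settings that leave out its assembled transcripts.

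The number of genes past 2-fold, 640, was 256 with a pseudocount of 5 FPKM, 278 with a mean FPKM of at least 5, 339 among genes above 0 in both libraries, 1060 over reference transcripts and 977 for the dominant one. The filters leave fewer genes, and otherwise the cause was not tested. The share of each subunit taken by its main transcript was also computed from coverage, which is proportional to FPKM within a gene and library, so it could not differ and is no check of the shares. In the 5 pathway lists, 3 of 51 genes were past 2-fold downward and 1 upward over reference transcripts and for the dominant one. In the main setting 0 and 2 of 55 were. Among all genes the counts in either direction were 1060 of 10407, 977 of 10065 and, in the main setting, 640 of 11179. The whole-series table gave no value for the subunits as genes, and over the transcripts it lists, the log2 ratio was -0.68 for CD274, -0.66 for CD44 and -1.64 for ERBB2. Identity between the paired subunits was not run. Read depth is unknown, and the intervals say nothing about repeat cultures.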

Other observations

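The TUSC3 gene spans 349435 bases, and besides its spliced transcripts it contained many assembled transcripts of a kind that shares no intron with the gene and did not enter its level. In the knockdown library 34 such fragments on the TUSC3 strand covered 60388 bases, and in the control library 36 covered 78138 bases. Nearly all lay upstream of the first exon of TUSC3-201, with 31 fragments over 59280 bases and a median of 0.377 FPKM in the knockdown library and 34 fragments over 75896 bases and a median of 0.534 FPKM in the control library. Among the other 9 subunits, RPN1 alone had such a fragment on its strand, 1 in each library, at 1.52 FPKM and 0.961 FPKM. Fragments are called separately in each library, so the covered length moves with what was assembled.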
